A study of Homo sapiens with 6 samples.

Results

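The genes described are the clustered replication-dependent histone genes of the MDA-MB-231 line, chosen by symbol alone. A gene was a member when its symbol named an H1 gene from H1-1 to H1-5 or began with H2AC, H2BC, H3C or H4C followed by a number. The rule found 57 of the 17645 genes listed, of which 3 encode H1, 15 encode H2A, 15 encode H2B, 13 encode H3 and 11 encode H4. MDA-MB-231 is a widely used human cell line from a triple negative breast tumour. Both groups of 3 libraries had been transfected for 48 h, one with siControl and the other with siRNF31, which targets RNF31. RNF31 encodes the ubiquitin ligase that builds linear chains in the complex LUBAC. The siRNA sequences were not used here, and the labels do not say whether libraries of a group came from separate cultures, so the p-values reflect library-to-library spread that may be technical.

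The unit throughout is FPKM, in which fragments are divided by the length of the transcript and the size of the library. Values are comparable between genes only as far as the transcript models fit. Read depth is unknown. RNF31 was listed at 11.34, 10.7 and 10.57 FPKM in the siControl libraries and at 1.92, 2.12 and 1.86 in the siRNF31 libraries, and the groups did not overlap (log2 fold change -2.001, adjusted p = 1.29e-07, limma). Vimentin, a mesenchymal marker of this line, averaged 3156 FPKM in siControl. EPCAM, an epithelial adhesion molecule, was at or below 0.03 FPKM in every library, and the leukocyte marker PTPRC was between 0.19 and 0.51. Of 12 markers of other cell types, 11 were listed, 6 were tested, 1 was higher (KRT14, a basal keratin) and 3 were lower in siRNF31. The levels of these markers were mixed. In siControl COL1A1 averaged 1050 FPKM, COL1A2 664, CD68 39.9 and DCN 25.2, and PECAM1 and KRT14 averaged 1.49 and 1.22. The markers listed but not tested were at or below 0.51 FPKM in every library. Of 5 markers of the line, 2 were lower in siRNF31 (CD44 and EGFR) and 3 were not called. Across the genes tested, siControl replicate 1 and siRNF31 replicate 3 deviated from their group means together (correlation across genes 0.675). The next highest values were 0.542 and 0.371, for siControl replicate 3 with siRNF31 replicates 1 and 2. A member is also given without siControl replicate 1 and siRNF31 replicate 3 where that changes its call.

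Replication-dependent histone genes supply the bulk of histone protein during S phase, when new DNA is packed into nucleosomes. Most of their mRNAs end not in a poly(A) tail but in a conserved stem-loop in the 3′ UTR, which the stem-loop binding protein SLBP holds and which U7 snRNP-directed cleavage leaves at the end of the mRNA. When cleavage at the stem-loop does not occur, transcription can run on to a poly(A) signal and give a tailed mRNA. The genes lie in a large cluster on chromosome 6 and smaller clusters on chromosome 1, in many nearly identical copies. Whether RNA with poly(A) tails was selected is not given in the sources used here. In bulk RNA, a change in the number of cells with these transcripts and a change in the amount of transcript per cell cannot be told apart, nor can more transcript and a larger tailed share if tails were selected.

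The stem-loop is shown because it defines how these mRNAs end. In GENCODE release 29, 31 of the 57 members had an annotated 3′ UTR, and the histone stem-loop motif was found in 28 of these. It was found in 41 of 19164 protein-coding genes with a 3′ UTR, or 0.214%. The 28 matches spelled 6 sequences, given as the sense DNA strand of GRCh38 transcripts, with the 4-base loop in capitals.
Stem-loop of H2AC6, H2AC8, H2BC8, H2BC9, H2BC21, H3C10 and 9 others: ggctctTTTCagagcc
Stem-loop of H2BC4, H2BC5, H2BC7 and H3C8: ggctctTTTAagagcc
Stem-loop of H4C2, H4C5, H4C8 and H4C11: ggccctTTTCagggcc
Stem-loop of H4C9, H4C14 and H4C15: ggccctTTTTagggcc
Stem-loop of H2AC11: ggctctTTTCagggcc
Stem-loop of H3C6: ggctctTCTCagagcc
The stem of the H4 genes shown here differed from the stem shared by most H2A, H2B and H3 genes, and loops differed among the H2B, H3 and H4 genes, while the H2A genes with a match shared 1 loop. H2BC8 and H2BC9 had the same stem-loop, and of them H2BC8 was called higher in siRNF31 and H2BC9 was not, a difference that was not itself tested.

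The promoters are shown because many H2A and H2B genes share one. RefSeq held windows from 250 bases before to 50 after the start (GRCh38.p14) for 52 of the 57 members. In these windows TATAAA, the TATA box core, was found in 69.2% of members and 12% of 27305 promoters of all genes. CCAAT, the core recognised by NF-Y, was found in 84.6% of members and 35.7% of all promoters. ATTTGCAT, the octamer bound by OCT1, was found in 44.2% of members and 1.8% of all promoters. Both strands were searched, and the motifs may overlap. By class, CCAAT was present in every H1, H2A, H2B and H3 window matched but in only 1 of 9 H4 windows, and the octamer was present in 80% of H2B, 71.4% of H2A, 9.09% of H3 and no H1 or H4 windows. The examples that follow give the stretch between H2A and H2B genes transcribed in opposite directions, and then the stretch upstream of 1 gene from each of the other classes, on the strand of the gene named first. Capitals mark these 3 motifs on either strand.
H2BC4, facing H2AC6, chr6:26123927-26124171, minus strand: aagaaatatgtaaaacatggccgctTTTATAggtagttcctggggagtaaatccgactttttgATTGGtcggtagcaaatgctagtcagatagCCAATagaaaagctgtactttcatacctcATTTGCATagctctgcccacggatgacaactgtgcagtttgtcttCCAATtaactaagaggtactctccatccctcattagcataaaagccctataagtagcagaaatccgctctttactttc
H2BC12, facing H2AC12, chr6:27146859-27147103, minus strand: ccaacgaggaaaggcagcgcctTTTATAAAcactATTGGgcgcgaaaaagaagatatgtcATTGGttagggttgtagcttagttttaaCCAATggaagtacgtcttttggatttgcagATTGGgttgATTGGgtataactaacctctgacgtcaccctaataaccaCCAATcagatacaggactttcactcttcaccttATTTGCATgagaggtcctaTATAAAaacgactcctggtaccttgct
H2AC14, facing H2BC14, chr6:27814778-27815021, minus strand: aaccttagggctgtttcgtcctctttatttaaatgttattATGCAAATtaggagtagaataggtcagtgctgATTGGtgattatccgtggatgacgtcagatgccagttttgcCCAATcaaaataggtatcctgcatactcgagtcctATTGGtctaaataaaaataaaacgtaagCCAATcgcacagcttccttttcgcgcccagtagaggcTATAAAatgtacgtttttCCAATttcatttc
H1-2, chr6:26056471-26056620, minus strand: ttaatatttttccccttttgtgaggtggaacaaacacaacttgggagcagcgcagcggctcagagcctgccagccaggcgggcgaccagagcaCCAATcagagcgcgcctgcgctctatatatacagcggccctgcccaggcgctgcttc
H3C10, chr6:27809901-27810050, plus strand: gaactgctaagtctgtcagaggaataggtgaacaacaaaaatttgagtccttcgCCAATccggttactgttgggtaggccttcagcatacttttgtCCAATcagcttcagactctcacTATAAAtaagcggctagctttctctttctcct
H4C8, chr6:26285535-26285684, minus strand: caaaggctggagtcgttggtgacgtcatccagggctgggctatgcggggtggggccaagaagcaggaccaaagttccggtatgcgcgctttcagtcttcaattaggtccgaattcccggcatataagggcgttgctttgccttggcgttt
A match describes letters only and does not show that a factor binds. The stretch of H2AC14 and H2BC14, both listed near 0 in all libraries, is set beside those of H2BC4 and H2BC12, the most abundant H2B genes in siRNF31.

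The summed level of the 57 genes was 58.39, 56.48 and 50.95 FPKM in the siControl libraries and 659.21, 653.06 and 699.14 FPKM in the siRNF31 libraries. The groups were far apart, with means of 55.3 ± 3.86 and 670.5 ± 25.0 (SD, n = 3 each), a ratio of 12.1. The members made up 0.0121% to 0.0130% of all FPKM in siControl and 0.149% to 0.152% in siRNF31. Every class contributed. The H2B sum went from 18.98 ± 1.07 to 365.8 ± 7.63 (ratio 19.3), the H2A sum from 10.0 ± 0.833 to 141 ± 8.48 (ratio 14.05) and the H3 sum from 4.02 ± 0.857 to 32.0 ± 2.10 (ratio 7.95; all SD, n = 3 each). The H1 sum went from 13.6 ± 3.07 to 85.3 ± 11.2 (ratio 6.25) and the H4 sum from 8.59 ± 1.74 to 46.3 ± 1.91 (ratio 5.39; SD, n = 3 each). Without the gene of highest mean over all libraries, the H3 ratio was 4.96 (without H3C4) and the H4 ratio 4.35 (without H4C15). The H4 ratio was 12.6 without the copies H4C11 and H4C12, which were left out after their values were seen. No test was made on these sums, and in each class every siRNF31 library was above every siControl library.

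**Figure D1:**
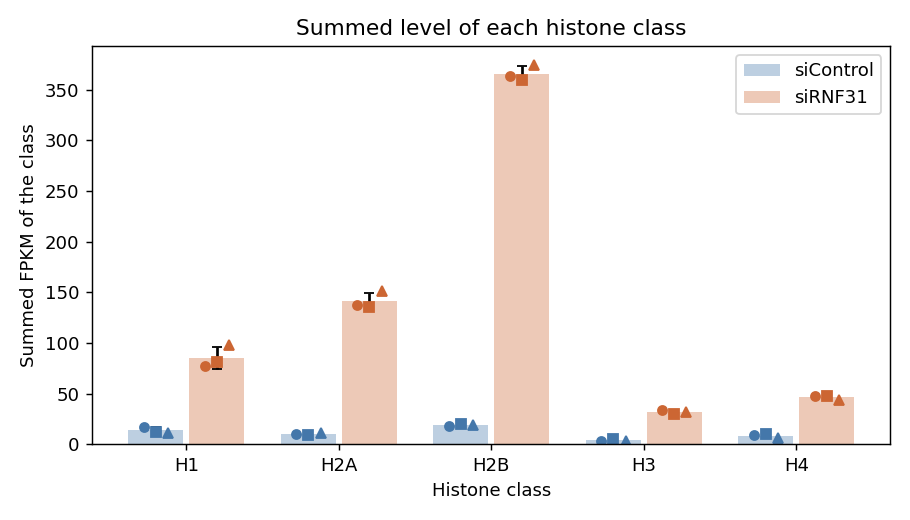
Summed FPKM of the members of each histone class in each library (points), with the group mean as a bar. In every class the 3 siRNF31 libraries sit above the 3 siControl libraries, with the widest gap in H2B, where the mean sum went from 18.98 to 365.8.

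The make-up of the histone pool differed between the groups. H2B genes held 34.3% of the members' FPKM in siControl and 54.6% in siRNF31, while H1 genes held 24.7% and 12.7%. H4 genes held 15.5% and 6.91%, H3 genes 7.28% and 4.77%, and H2A genes 18.2% and 21.0%. A few genes carried most of the total in both groups. In siControl the 5 most abundant members (H1-2, H2BC12, H4C11, H2BC9 and H2AC6) held 61.9% of the sum, and in siRNF31 the 5 most abundant (H2BC12, H1-2, H2AC6, H2BC4 and H2BC5) held 62.8%.

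Of the 57 members, 32 passed a filter of at least 1 FPKM in at least 3 of the 6 libraries and were tested with limma over 11346 genes. At an adjusted p below 0.05, 27 were higher in siRNF31, 0 were lower and 5 were not called. Among all genes tested, 26.6% were higher and 36.5% were lower. At an unadjusted p below 0.05 no member was lower either. The median log2 fold change was 2.28 among members tested and -0.06 among all genes tested. This count leans to the higher side by construction, since 20 of the 32 were below 1 FPKM in every siControl library and passed the filter through siRNF31 alone. Of the 8 members at or above 1 FPKM in every library of both groups, 5 were higher in siRNF31 when tested among genes with that property. Of all 10614 genes with that property, 2737 were higher and 3910 lower. Without any filter, 36 of 57 members were higher, 0 lower (0 also at an unadjusted p below 0.05) and 21 not called by limma, against 19.5% higher and 24.3% lower among all 17645 genes. The median log2 fold change over all 57 was 1.14.

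Counted without a model, 38 members had every siRNF31 library above every siControl library and none had the reverse, while 19 overlapped. Over all listed genes these shares were 23.5% and 27.6%. In siControl 8 members reached 1 FPKM in all 3 libraries and 2 had a mean of at least 10 FPKM. In siRNF31 30 members reached 1 FPKM in all 3 libraries and 15 had a mean of at least 10. At the other end, 16 members stayed below 1 FPKM in all 6 libraries, 9 were listed at 0 in all siControl libraries and 2 (H2AC14 and H2AC16) were listed at 0 in all siRNF31 libraries. Of the 342 member values, 74 were exactly 0, 53 of them in siControl. Members with zeros are given by library values or ranges, without a mean. Fold changes were computed from log2(FPKM + 1), and this makes those of low genes too small.

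**Figure D2:**
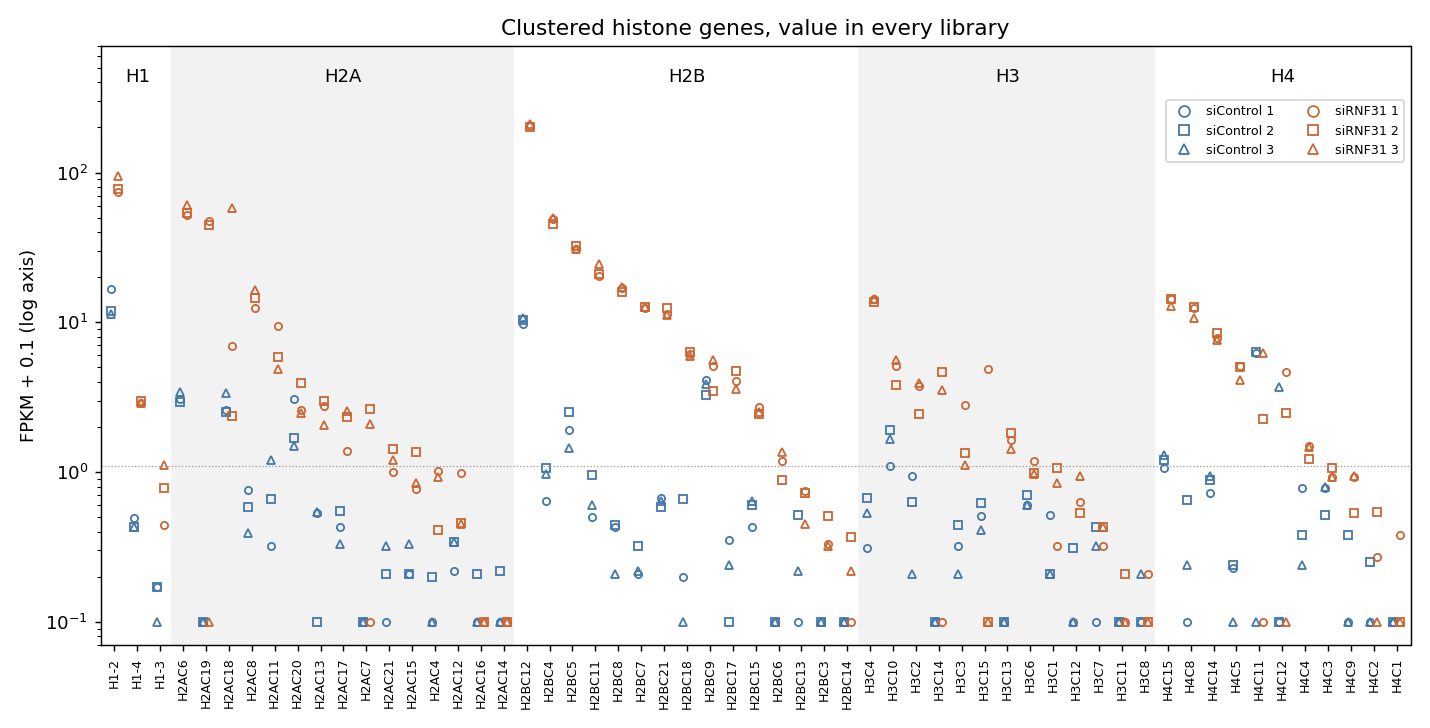
FPKM of each of the 57 members in each library, ordered by class. The siControl values of most members lie below 1 FPKM, and 30 members are at or above 1 FPKM in all siRNF31 libraries.

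Histone H1 is the linker histone that binds the DNA where it enters and leaves the nucleosome. H1-2 made up 97.1% of the H1 sum in siControl and 95.9% in siRNF31. It was listed at 16.7, 11.85 and 11.17 FPKM in siControl and at 73.58, 77.66 and 94.12 in siRNF31. The groups did not overlap and the log2 fold change was 2.55 (SE 0.146, adjusted p = 1.71e-06, limma). H1-4 was at 0.39, 0.33 and 0.33 FPKM in siControl and at 2.81, 2.88 and 2.78 in siRNF31, a log2 fold change of 1.502 (SE 0.063, adjusted p = 3.44e-07, limma). H1-3 stayed below the filter, at no more than 0.07 FPKM in siControl and between 0.34 and 1.01 in siRNF31. All 3 H1 genes were thus higher in every siRNF31 library, and only H1-2 was above 1 FPKM in siControl.

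H2A pairs with H2B in a dimer, and a pair of these dimers flanks the H3 and H4 core of the nucleosome. Of 15 H2A genes, 7 were tested, 5 were higher and 2 were not called, against 26.6% higher among all genes tested. The filter was passed through siRNF31 alone by 3 of the 7. Without a filter 8 of the 15 were higher, against 19.5% of all genes. H2AC6 was the most abundant, with 30.3% of the H2A sum in siControl and 39.1% in siRNF31. It was listed at 2.99, 2.83 and 3.31 FPKM in siControl and at 51.64, 53.38 and 60.32 in siRNF31. The groups did not overlap, with a log2 fold change of 3.79 (SE 0.077, adjusted p = 1.55e-08, limma). The other H2A genes called higher were H2AC8 (0.29 to 0.66 FPKM in siControl, 12.4 to 16.28 in siRNF31), H2AC11 (0.22 to 1.1 and 4.75 to 9.31), H2AC13 (0 to 0.44 and 1.97 to 2.88) and H2AC17 (0.23 to 0.45 and 1.29 to 2.46), and the log2 fold changes of all 5 ran from 1.14 to 3.79.

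H2AC20 was listed at 2.96, 1.59 and 1.39 FPKM in siControl and at 2.5, 3.82 and 2.36 in siRNF31. The groups overlapped because siControl replicate 1 lay above siRNF31 replicates 1 and 3, and the difference was not called (log2 fold change 0.40, SE 0.203, adjusted p = 0.11, limma). Without siControl replicate 1 the log2 fold change was 0.63 (adjusted p = 0.0070, limma), and with siRNF31 replicate 3 left out as well it was 0.72 (adjusted p = 0.0014, limma). The call of H2AC20 thus turned on that control library. H2AC7 was listed at 0 in every siControl library and at 0, 2.54 and 2 FPKM in siRNF31, and its RefSeq span lies inside that of H3C4 on the same strand, so the values of these genes may share reads. H2AC4, H2AC12, H2AC15 and H2AC21 were at or below 0.24 FPKM in siControl and between 0.31 and 1.33 in siRNF31, below the filter. H2AC14 and H2AC16 were at 0.12 and 0.11 FPKM in siControl replicate 2 and at 0 elsewhere.

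H2AC18 and H2AC19 are nearly identical copies whose single values differed widely among the siRNF31 libraries. H2AC18 was listed at 2.49, 2.41 and 3.26 FPKM in siControl and at 6.89, 2.27 and 57.62 in siRNF31. H2AC19 was listed at 0 in every siControl library and at 47.54, 44.45 and 0 in siRNF31. Where one was high in siRNF31 the other was low, and the H2AC18 difference was not called (log2 fold change 1.63, adjusted p = 0.26, limma; 0.46 without siRNF31 replicate 3 and 2.54 without siRNF31 replicate 2). How reads were divided between copies was not tested. All 50-base stretches of the H2AC18 transcript also occur in H2AC19 in GENCODE release 29. Summed, the pair was at 2.49, 2.41 and 3.26 FPKM in siControl and at 54.43, 46.72 and 57.62 in siRNF31. The sum was steady within each group, at 2.72 ± 0.469 and 52.9 ± 5.604 (SD, n = 3 each), with a log2 fold change of 3.86 (SE 0.107, adjusted p = 6.29e-08, limma). This treatment of copies was chosen after their values were seen.

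H2B genes had the largest class sum in both groups. Of 15 H2B genes, 11 were tested, 10 were higher and 1 was not called, against 26.6% higher among all genes tested. The filter was passed through siRNF31 alone by 8 of the 11. Without a filter 12 of the 15 were higher, against 19.5% of all genes. H2BC12 alone held 53.6% of the H2B sum in siControl and 56.0% in siRNF31. It was listed at 9.67, 10.27 and 10.6 FPKM in siControl and at 203.34, 201.68 and 209.7 in siRNF31. Its libraries were tight within each group and far apart between them, with a ratio of means of 20.1 and a log2 fold change of 4.204 (SE 0.054, adjusted p = 1.86e-09, limma). Reads of the antisense gene H4C9, which lies within the RefSeq span of H2BC12, cannot be told apart from it unless strand was used in counting, which is not stated. H4C9 itself was listed at no more than 0.84 FPKM.

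H2BC4 was listed at 0.54, 0.96 and 0.87 FPKM in siControl and at 48.7, 45.49 and 49.35 in siRNF31. On the log2(FPKM + 1) scale it had the largest fold change among the members tested, 4.78 (SE 0.095, adjusted p = 1.45e-08, limma). Its ratio of means, 60.6, was below those of H2BC7 (83.2) and H2BC8 (64.0). H2BC5 went from 1.34 to 2.41 FPKM in siControl to 30.67 to 32.39 in siRNF31, and H2BC11 from 0.4 to 0.85 to 20.35 to 24.5. H2BC7, H2BC8 and H2BC21 were each below 0.6 FPKM in every siControl library and between 11.14 and 17.22 FPKM in siRNF31. The other genes called higher were H2BC15, H2BC17 and H2BC18, at 0 to 0.56 FPKM in siControl and 2.35 to 6.2 in siRNF31.

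H2BC9 was the tested H2B gene that was not called. It was listed at 3.99, 3.16 and 3.78 FPKM in siControl and at 5.01, 3.35 and 5.46 in siRNF31. The groups overlapped and the difference was not called (log2 fold change 0.26, SE 0.146, adjusted p = 0.16, limma), although without siRNF31 replicate 2 it was called at 0.43 (adjusted p = 0.0090, limma). In siControl H2BC12 alone in the class had a higher mean. H2BC6 was listed at 0 in every siControl library and at 1.08, 0.78 and 1.26 FPKM in siRNF31, below the filter. H2BC3, H2BC13 and H2BC14 stayed at or below 0.65 FPKM in every library.

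H3 and H4 form the inner core of the nucleosome and carry most of the modified tail residues studied in chromatin. Of 13 H3 genes, 5 were tested and all 5 were higher, against 26.6% of all genes tested, but 4 of the 5 had passed the filter through siRNF31 alone. Without a filter 7 of the 13 were higher, against 19.5% of all genes. H3C4 was listed at 0.21, 0.57 and 0.43 FPKM in siControl and at 14.28, 13.58 and 14.19 in siRNF31. Its groups did not overlap (log2 fold change 3.43, SE 0.098, adjusted p = 8.04e-08, limma), and it held 43.8% of the H3 sum in siRNF31. H3C10 was the most abundant H3 gene in siControl, at 1, 1.8 and 1.56 FPKM, and was at 4.97, 3.73 and 5.48 in siRNF31. It too did not overlap, with a log2 fold change of 1.22 (SE 0.151, adjusted p = 0.000147, limma).

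H3C3 had the smallest log2 fold change among the H3 genes tested on the log2(FPKM + 1) scale, though not by the ratio of means (7.40, against 3.25 for H3C10). It was at 0.22, 0.34 and 0.11 FPKM in siControl and 2.71, 1.24 and 1.01 in siRNF31 (log2 fold change 1.07, SE 0.206, adjusted p = 0.0019, limma). After each library was scaled to a common sum it no longer passed the filter. H3C13 was listed at 0 in every siControl library and at 1.53, 1.72 and 1.33 FPKM in siRNF31, and was called higher (adjusted p = 1.63e-06, limma). H3C14 was listed at 0 in every siControl library and at 0, 4.52 and 3.41 FPKM in siRNF31, whereas its identical copy H3C15 was at 0.41, 0.52 and 0.31 and at 4.77, 0 and 0. Each siRNF31 library had its whole value in 1 of these copies, whereas H2AC18 and H2AC19 were both above 0 in siRNF31 replicates 1 and 2. The sum of H3C14 and H3C15 was 0.41, 0.52 and 0.31 FPKM in siControl and 4.77, 4.52 and 3.41 in siRNF31. Its log2 fold change was 1.88 (SE 0.112, adjusted p = 2.01e-06, limma). H3C1, H3C6, H3C7, H3C8, H3C11 and H3C12 were not tested and stayed at or below 1.09 FPKM, and H3C8 was at 0.11 FPKM in 1 library of each group and at 0 in the others.

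Of 11 H4 genes, 7 were tested, 5 were higher and 2 were not called, against 26.6% higher among all genes tested. The filter was passed through siRNF31 alone by 4 of the 7. Without a filter 6 of the 11 were higher, against 19.5% of all genes. H4C15 was listed at 0.96, 1.11 and 1.2 FPKM in siControl and at 14.23, 14.19 and 12.7 in siRNF31 (log2 fold change 2.81, SE 0.076, adjusted p = 5.95e-08, limma). H4C8 was listed at 0, 0.55 and 0.14 FPKM in siControl and at 12.35, 12.49 and 10.59 in siRNF31 (log2 fold change 3.40, SE 0.151, adjusted p = 4.51e-07, limma). Neither gene's groups overlapped, and with H4C14 they held 29.6%, 25.5% and 17.0% of the H4 sum in siRNF31 in the order H4C15, H4C8, H4C14. H4C5 and H4C14 were between 4.04 and 8.33 FPKM in siRNF31 and below 1 in siControl, and H4C4 had the smallest log2 fold change among the H4 genes called, 0.77. H4C1, H4C2, H4C3 and H4C9 stayed at or below 0.97 FPKM in every library. The RefSeq span of H4C15 contains H2AC19 and H3C15 on the opposite strand, so their values may share reads.

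H4C11 and H4C12 were the tested H4 genes that were not called. H4C11 was listed at 6.13, 6.23 and 0 FPKM in siControl and at 0, 2.16 and 6.18 in siRNF31, with a log2 fold change of -0.39 (SE 1.15, adjusted p = 0.78, limma). H4C12 was listed at 0, 0 and 3.61 FPKM in siControl and at 4.53, 2.36 and 0 in siRNF31 (log2 fold change 0.67, SE 0.934, adjusted p = 0.57, limma; 0.14 to 1.41 when 1 library was left out). Neither differed beyond the spread of its libraries, and high values of one again went with low values of the other. All 50-base stretches of H4C12 occur in H4C11. The sum of the pair was 6.13, 6.23 and 3.61 FPKM in siControl and 4.53, 4.52 and 6.18 in siRNF31, with a log2 fold change of -0.04 (SE 0.181, adjusted p = 0.86, limma). The groups overlapped. These copies supplied most of the H4 sum in siControl, and without them that sum went from 3.27 ± 0.386 to 41.2 ± 2.87 FPKM (SD, n = 3 each), a ratio of 12.6, in a comparison chosen after the values were seen.

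**Figure D3:**
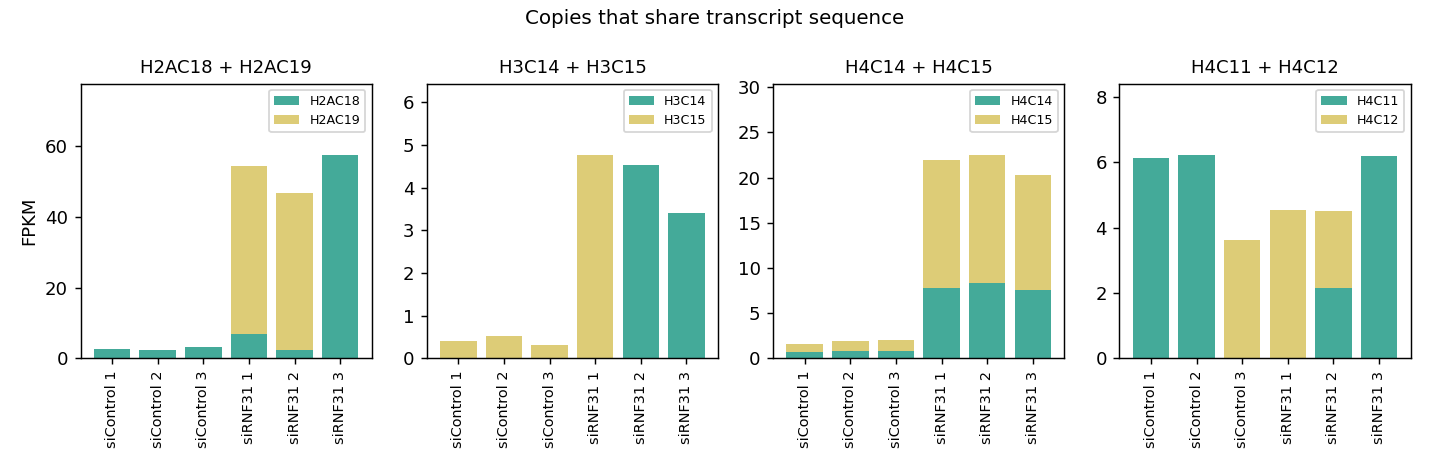
FPKM of pairs of copies that share at least 50% of their 50-base stretches, by library, with each pair's sum. High and low values trade places between H2AC18 and H2AC19, H3C14 and H3C15, and H4C11 and H4C12. The sums separate the groups in every pair shown except H4C11 with H4C12, where they overlap.

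Over all 5 pairs of near-identical copies, summing gave 4 pairs that were higher in siRNF31 and 1 pair, H4C11 with H4C12, that was not called. The sum of H4C14 and H4C15 was 1.59, 1.89 and 2.04 FPKM in siControl and 21.99, 22.52 and 20.24 in siRNF31 (log2 fold change 2.99, adjusted p = 4.71e-08, limma). The sum of H2AC13 and H2AC14 was 0.43, 0.12 and 0.44 FPKM and 2.66, 2.88 and 1.97 (log2 fold change 1.40, adjusted p = 2.85e-05, limma). With copies summed in this way, 28 of 31 members or sums tested were higher and none was lower. Over all 11345 genes or sums in that fit, 3026 were higher and 4145 lower. The level of a single copy in these pairs is uncertain, whereas the H1 genes shared no 50-base stretch with another member and H2BC12 shared 22.6% of its stretches with any. Outside the pairs, H2AC20 shared 30.5% of its stretches with H2AC19 and H3C13 shared 37.8% with H3C15, so their values may share reads.

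In 10 places an H2A and an H2B gene faced each other with 303 to 334 bases between their coding starts. In 5 of them both genes were higher in siRNF31 in the fit without a filter, in 4 only one was, and in 1 neither was. That fit called 19.5% of all genes higher. H2BC4 and H2AC6 rose together, from 0.79 ± 0.221 to 47.8 ± 2.07 FPKM and from 3.04 ± 0.244 to 55.1 ± 4.59 (SD, n = 3 each). H2BC8 with H2AC8, H2BC11 with H2AC11, H2AC15 with H2BC15 and H2AC17 with H2BC17 also rose as pairs. The stretch shared by H2BC12 and H2AC12 separated genes of very unequal level, since H2AC12 was at 0.12, 0.24 and 0.24 FPKM in siControl and at 0.89, 0.36 and 0.35 in siRNF31. Those groups did not overlap but H2AC12 was not called without a filter (limma). H2BC21 rose while H2AC20 across from it was not called, and H2AC14 and H2BC14 were near 0 in both groups.

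**Figure D4:**
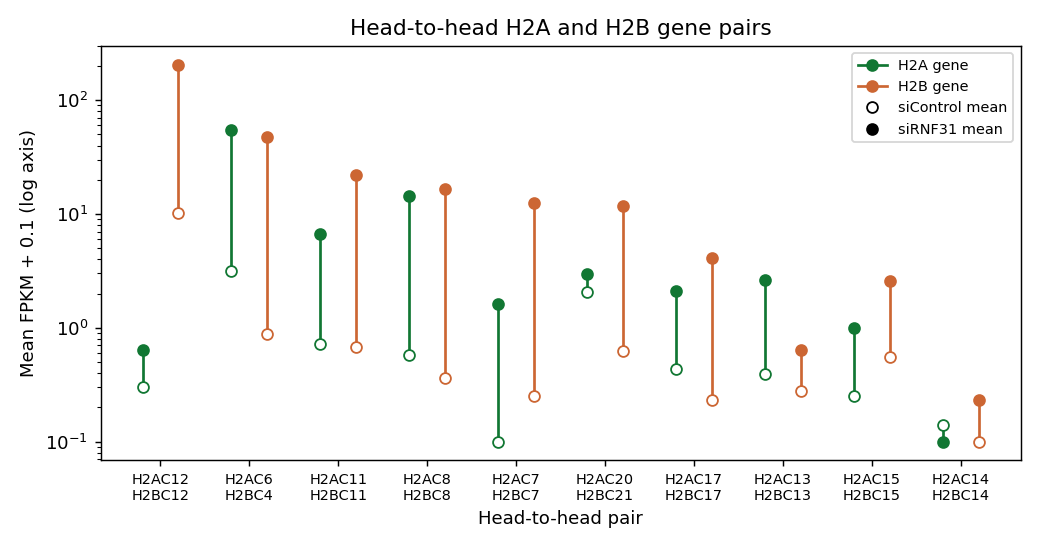
Mean FPKM of the H2A and H2B genes of the 10 pairs that face each other, in siControl and siRNF31 (log axis). In the fit without a filter, which called 19.5% of all genes higher, both genes were higher in siRNF31 in 5 pairs. H2BC12 reached a mean of 205 FPKM in siRNF31 while H2AC12 reached 0.533.

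By location, 46 members lie on chromosome 6 and 11 on chromosome 1 in RefSeq GRCh38.p14. On chromosome 6, 30 of 46 were higher without a filter, a fit in which 19.5% of all genes were higher. The summed mean of the 46 went from 47.5 to 568.55 FPKM. On chromosome 1, 6 of 11 were higher and the sum went from 7.81 to 101.92 FPKM. Within chromosome 6, gaps of over 0.2 Mb set off 3 stretches. The one with the lowest coordinates, with all 3 H1 genes, H2BC4 and H2AC6, had 19 of 27 members higher (27.3 to 311 FPKM). The next, with H2BC11 and H2BC12, had 4 of 5 higher (11.7 to 234.66 FPKM). The last, with H4C11, H4C12, H2AC14 and H2BC14, had 7 of 14 higher (8.47 to 23.0 FPKM), and none of its members reached a mean of 10 FPKM in siRNF31. Inside these clusters 2 non-histone genes were listed. HFE, an iron regulator on chromosome 6, was at 2.28, 3.39 and 2.49 FPKM in siControl and at 3.69, 2.94 and 2.14 in siRNF31 and was not called (log2 fold change 0.07, adjusted p = 0.72, limma). FCGR1A, an Fc receptor gene on chromosome 1, was below the filter, listed at 0 in every siControl library and at 0.83, 0.76 and 0.53 FPKM in siRNF31.

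Members were also set apart by how their GENCODE release 29 transcripts end. In 20 members an annotated transcript ran at least 100 bases past the stem-loop. Of these, 16 were higher without a filter, against 19.5% of all genes. The median log2 fold change of the 20 was 2.28, and 7 of them had a mean of at least 10 FPKM in siRNF31. In 8 members the transcript with the stem-loop ended less than 100 bases past it, from 6 bases (H4C11) to 86 (H4C2). Transcripts without the stem-loop were not counted here, and H2BC5 has 2 coding transcripts with a longest 3′ UTR of 384 bases. Of these 8 (median 1.54), 3 were higher, H2AC8, H2BC5 and H2AC13. The 5 not called were H2BC13, H4C2 and the copies H2AC18, H2AC19 and H4C11, and the sum of H2AC18 and H2AC19 was higher, as given above for the pair. Another 26 members had no annotated 3′ UTR, and 15 of these were higher (median 0.68), including H1-2, H2BC12 and H3C4. The remaining 3 had a 3′ UTR in which no stem-loop was found, and 2 of them were higher. The 4 members that ran on and were not called were H2BC9, H3C8, H3C14 and H3C15. These groups rest on which transcripts were annotated and were not tested against each other.

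The factors that act on these genes are set beside the shares over all genes tested, of which 26.6% were higher and 36.5% lower. Of 12 genes for transcription at histone loci, 4 were higher, 4 lower and 4 not called (median log2 fold change 0.02), which is near those shares. NPAT, the coactivator that concentrates at histone genes, was 4.73 ± 0.855 FPKM in siControl and 4.82 ± 0.464 in siRNF31 and was not called (log2 fold change 0.03, adjusted p = 0.82, limma). HINFP, a regulator of H4 genes, rose from 4.09 ± 0.167 to 7.12 ± 0.654 FPKM, and E2F1, a factor for entry into S phase, rose from 15.4 ± 1.44 to 34.1 ± 0.661 (SD, n = 3 each). NFYB, a subunit of the CCAAT-binding NF-Y, fell from 10.3 ± 0.696 to 5.40 ± 0.126 FPKM.

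Of 24 genes for the processing of histone pre-mRNA 3′ ends, 4 were higher, 10 lower and 10 not called (median -0.18), against 26.6% higher and 36.5% lower over all genes tested. SLBP was listed at 42.14, 41.19 and 41.34 FPKM in siControl and at 45.97, 44.01 and 46.16 in siRNF31. Its groups did not overlap but the difference was small and not called (log2 fold change 0.12, SE 0.049, adjusted p = 0.055, limma). ZNF473, a protein of the U7 processing complex, rose from 3.83 ± 0.240 to 6.94 ± 0.276 FPKM, while NCBP2, the small cap-binding subunit, fell from 80.3 ± 0.371 to 49.0 ± 0.960 (SD, n = 3 each). The higher count was 2 in place of 4 without siControl replicate 2, siControl replicate 3 or siRNF31 replicate 2, and the lower count was 6 in place of 10 without siControl replicate 2. SSU72, a phosphatase of the RNA polymerase tail, rose from 64.5 ± 3.76 to 96.6 ± 3.596 FPKM. Of 16 genes for histone mRNA decay and export, 4 were higher, 8 lower and 4 not called (median -0.09), against 26.6% and 36.5% over all genes tested. The higher count was 2 without siControl replicate 2 or siRNF31 replicate 2. NXF1, the general mRNA export receptor, rose from 27.0 ± 1.52 to 95.3 ± 4.99 FPKM. MIF4GD, which links SLBP to translation, fell from 3.38 ± 0.628 to 0.57 ± 0.180 FPKM, and ATR, a kinase of the replication stress response, from 8.98 ± 1.60 to 5.08 ± 0.684 (SD, n = 3 each).

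Of 21 histone chaperones, 6 were higher, 9 lower and 6 not called (median 0.07), near the 26.6% and 36.5% over all genes tested. HIRA, which deposits H3.3 outside replication, fell from 19.1 ± 0.502 to 7.53 ± 0.201 FPKM, and ASF1A, which carries H3 with H4, fell from 11.1 ± 0.435 to 6.57 ± 0.533. HJURP, the chaperone of CENPA, fell from 79.3 ± 1.68 to 51.8 ± 1.102 FPKM, while NAP1L1, a chaperone of H2A with H2B, rose from 160 ± 3.55 to 242 ± 4.83 (SD, n = 3 each). Of 14 replication-independent histone variants, 11 were tested, 7 were higher, 1 lower and 3 not called (median log2 fold change 0.55), against 26.6% higher and 36.5% lower over all genes tested. The list includes H2AW and H2BU1, which the RefSeq table names H2AC25 and H2BC26. The symbol rule would take both under those names, so the counts of the list are not of replication-independent variants alone. H3-3A, a gene of the variant H3.3, rose from 128 ± 7.49 to 194 ± 11.9 FPKM and CENPA, the centromeric H3, from 24.0 ± 0.935 to 42.3 ± 2.13 (SD, n = 3 each). H2AX, the variant phosphorylated at DNA breaks, rose from 48.4 ± 2.47 to 65.5 ± 4.58 FPKM, and H2AW, a further H2A gene, from 0.853 ± 0.270 to 6.74 ± 1.72. H3-3B, which encodes the same protein as H3-3A, was 179 ± 9.10 and 166 ± 6.16 FPKM and was not called (adjusted p = 0.17, limma). Its groups did not overlap, with every siRNF31 library below every siControl library. On the FPKM scale H3-3A and H3-3B were each above the summed level of all 57 members in siControl.

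Genes of the cell cycle are set beside the histone genes because histone transcription is tied to S phase. Of 40 genes of S phase and DNA replication, 15 were higher, 15 lower and 10 not called (median log2 fold change 0.07), against 26.6% higher and 36.5% lower over all genes tested. PCNA, the replication clamp, rose from 113 ± 6.85 to 146 ± 7.04 FPKM, RRM2, a ribonucleotide reductase subunit, from 173 ± 2.04 to 304 ± 4.56, and CCNE1, the cyclin of S phase entry, from 6.97 ± 0.314 to 28.3 ± 1.16 (SD, n = 3 each). FEN1, the flap endonuclease of lagging strand synthesis, fell from 94.6 ± 4.52 to 56.95 ± 2.52 FPKM, and MCM7, a subunit of the replicative helicase, from 138 ± 7.53 to 87.02 ± 3.68. NAP1L1, FEN1 and MCM7 were named after their values were seen. Of the 24 G2 and mitosis genes, 15 were lower, 3 higher and 6 not called (median -0.28), against 36.5% lower and 26.6% higher over all genes tested. AURKA, a mitotic kinase, fell from 104 ± 2.60 to 20.8 ± 0.804 FPKM and CCNA2, cyclin A, from 57.7 ± 1.53 to 31.9 ± 1.77, and BIRC5, survivin, rose from 53.4 ± 3.87 to 91.9 ± 6.44. MKI67, a proliferation marker, was 36.3 ± 3.64 and 35.6 ± 2.92 and was not called (adjusted p = 0.80, limma). The part of cell cycle phase in the histone values was not tested.

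**Figure D5:**
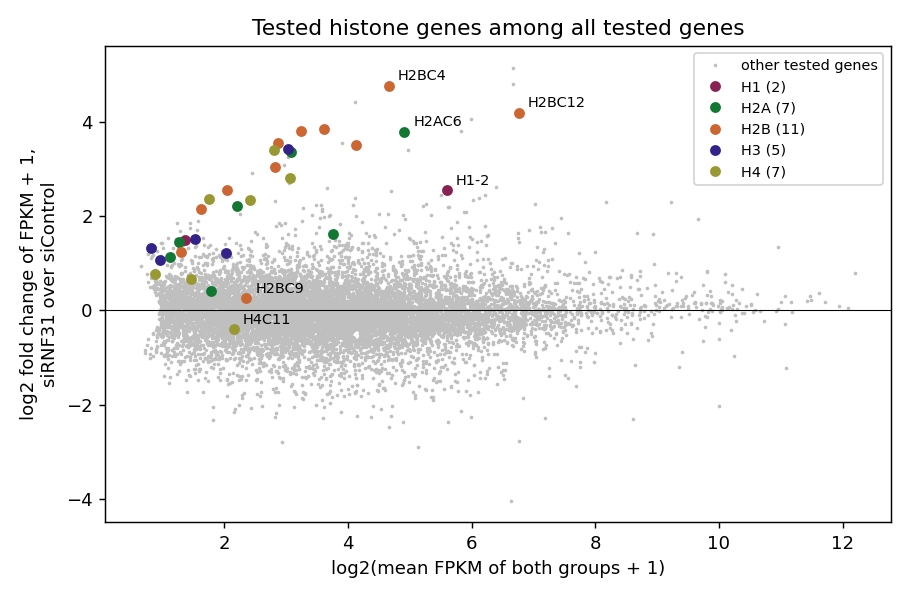
Log2 fold change (siRNF31 over siControl, on the log2(FPKM + 1) scale) of every gene tested against its mean level, with the members tested marked by class. The members tested had a median log2 fold change of 2.28 and all genes tested -0.06, and members listed near 0 in siControl lie along the upper edge because their mean is set by siRNF31.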

How the data were processed

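RNA of 6 libraries was measured. Libraries were made from Trizol-extracted total RNA for the BGISEQ-500 system, per the labels' protocols. The authors deposited 1 table of FPKM per library, per the file headers. Aligner, quantification program, genome build and annotation: not given in the sources used here. FPKM divides by the length of a transcript model, and how reads of identical copies were assigned is not stated. Read counts were not recovered, so the depth is unknown and the precision is given by the spread between libraries. FPKM totals ran from 421755 to 463457.

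Values were transformed to log2(FPKM + 1), and 11346 genes with at least 1 FPKM in at least 3 of 6 libraries were fitted in R 4.3.3 with limma 3.58.1 (intensity trend, robust moderation). P-values are two-sided and adjusted by Benjamini and Hochberg over all genes tested, with calls at 0.05. The procedure was tested on simulated data. Ratios are of group mean FPKM. Promoter windows, names, overlapping spans and the non-histone genes inside the clusters came from RefSeq GRCh38.p14. Stem-loops, shared 50-base stretches, coding starts, chromosomes and gene order came from GENCODE release 29. Of 68 genes in RefSeq that fit the rule, 57 were found by symbol, 3 are listed under other symbols and are not members (H2AW, H2BU1, H4-16), and 8 were not analysed here.

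Named by rule were, per class, the member with the highest mean in each group, the largest and the smallest change, those listed at 0 throughout 1 group with a mean of at least 1 FPKM in the other, and those tested and not called. Of the histone variants, 1 gene that the rule named is not reported here. Other members are named as examples chosen after their values were seen. The members and the gene lists were chosen with earlier results of these data known. Alternatives changed the pseudocount, filter, scaling, trend, replicate block and libraries left out. Summing genes that encode the same protein was not run, for want of a protein table, and copies sharing sequence were summed in its place.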

Additional observations from a re-analysis of the deposited data

How the results depend on the processing

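Members called higher numbered 26 to 28, and members called lower 0, under a pseudocount of 0.1, both other scalings, no intensity trend, the replicate block and leaving out libraries. Requiring at least 1 FPKM in all 6 libraries left 8 members to test, of which 5 were higher. That fit covered 10614 genes, of which 2737 were higher and 3910 lower. Over all genes, calls were 3022 higher and 4141 lower, and median-of-ratios scaling gave 3282 and 3792, with a median log2 fold change of -0.024. Leaving out 1 library in turn gave 2607 to 3018 higher and 3603 to 4127 lower, and leaving out siControl replicate 1 and siRNF31 replicate 3, chosen after seeing the data, gave 3401 and 4513, 28 members higher, and list counts of 13 lower in processing and, higher, 6 in decay and export, 8 in chaperones, 8 in variants and 18 in S phase. Same-numbered libraries did not clearly deviate together, since their deviations correlated at -0.568, 0.124 and -0.629. With 3 libraries per group these values cannot show whether libraries were handled in pairs. With the replicate block 2480 genes were higher and 3497 lower, 27 members were higher, and the processing list and the decay and export list each had 2 higher in place of 4. Leaving out 1 library gave 2 to 3 higher and 6 to 11 lower in the processing list and 2 to 5 higher in the decay and export list.

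Ratios of class sums without the most abundant member were 8.82 for H1, 12.3 for H2A, 18.3 for H2B, 4.96 for H3, 4.35 for H4 and 10.3 for all members. Summing tested members alone gave 11.2 for H2A and 9.79 for H3. H4 without H4C11 and H4C12, left out after their values were seen, gave 12.6. Leaving out 1 library gave ratios of 5.79 to 7.18 for H1, 13.4 to 14.5 for H2A, 18.8 to 19.9 for H2B, 7.43 to 9.06 for H3 and 4.84 to 5.85 for H4. The fold change of H4C11 ranged from -1.34 to 0.36 when 1 library was left out and changed sign without siControl replicate 1 (0.07), siControl replicate 2 (0.08) or siRNF31 replicate 1 (0.36), and the cause was not tested. The absence of depth limits what can be said of members below 1 FPKM.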
